A study of Mus musculus with 9 samples.

Results

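The visual cycle genes Rdh12, Rdh11, Rdh5, Abca4, Rbp3, Rlbp1, Rgr, Rpe65 and Lrat encode enzymes, carriers and a transporter of retinoids, the vitamin A compounds that serve vision. They were chosen by symbol, and all 9 were measured, out of 18193 genes in the deposited table. Each gene was followed on the Affymetrix probe set annotated to it alone with the highest mean signal, and the 4 genes with a further probe set (Rdh12, Rdh11, Rbp3 and Lrat) gave 13 member probe sets in all. A further Rdh5 probe set that is also annotated to Bloc1s1 was not used.

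Cells of dissociated mouse retinae were sorted by GFP fluorescence (FACS), and their total RNA was measured on 9 arrays, 3 per group. The GFP-positive and GFP-negative fractions of rhoEGFP mice were taken at postnatal day 4 and are called rhoGFP-positive P4 and rhoGFP-negative P4. The GFP-positive fraction of pNestin-GFP mice was taken at postnatal day 0 and is called nestinGFP-positive P0. All groups had the background C57BL/6J-129/Ola, and 6 to 8 mice gave the pooled retinae of a biological replicate. The rhoEGFP line reports rod photoreceptors, and the labels do not say whether its GFP is driven by a promoter fragment or fused to the rod opsin. The pNestin-GFP line reports activity of promoter sequence of nestin, an intermediate filament gene of neural progenitors. The rhoGFP fractions share line and age. The nestinGFP-positive group differs from both in line, age and sorted population together, so their parts cannot be told apart there.

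Light converts the 11-cis-retinal of an opsin to all-trans-retinal, and the visual cycle is the set of steps that turns it back. In photoreceptors ABCA4 moves retinal bound to phosphatidylethanolamine across the outer segment disc membrane, and the retinol dehydrogenase RDH12 reduces retinal, as does RDH11 in several cell types. RBP3 (IRBP) carries retinoids through the space between photoreceptors and the pigment epithelium. In the pigment epithelium LRAT makes retinyl esters, RPE65 isomerises them, RDH5 oxidises 11-cis-retinol and RLBP1 (CRALBP) binds the 11-cis retinoids. RLBP1 is also a known protein of Müller glia, and RGR is a retinal-binding opsin of pigment epithelium and Müller glia. At these ages mouse rods have not yet grown outer segments.

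The promoters of the 5 genes that passed the test in at least 1 comparison are shown because motifs of photoreceptor transcription factors could be read in them. The letters are the 250 bases before the annotated start in RefSeq, build GRCm38.p6, written 5′ to 3′ on the strand of the gene. Capitals mark matches to TAATCC, letters bound by the homeodomain factors CRX and OTX2 (GGATTA on the other strand), and to TGCTGA, the core of the response element of the rod factor NRL (TCAGCA on the other strand). The regions are chr12:79208663-79208912 (plus strand) for Rdh12, chr3:122044210-122044459 (plus) for Abca4, chr14:33953753-33954002 (plus) for Rbp3, chr7:79387028-79387277 (minus) for Rlbp1 and chr14:37049015-37049264 (minus) for Rgr.
Rdh12: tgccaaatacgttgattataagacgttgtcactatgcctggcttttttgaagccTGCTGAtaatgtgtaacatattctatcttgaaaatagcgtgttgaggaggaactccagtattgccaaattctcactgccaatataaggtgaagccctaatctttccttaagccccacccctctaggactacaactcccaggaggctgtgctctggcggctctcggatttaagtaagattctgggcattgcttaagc
Abca4: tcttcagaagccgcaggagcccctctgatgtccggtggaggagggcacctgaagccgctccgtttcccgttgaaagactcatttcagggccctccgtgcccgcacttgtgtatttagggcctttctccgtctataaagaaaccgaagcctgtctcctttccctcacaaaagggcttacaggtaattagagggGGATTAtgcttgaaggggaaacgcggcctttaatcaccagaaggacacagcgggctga
Rbp3: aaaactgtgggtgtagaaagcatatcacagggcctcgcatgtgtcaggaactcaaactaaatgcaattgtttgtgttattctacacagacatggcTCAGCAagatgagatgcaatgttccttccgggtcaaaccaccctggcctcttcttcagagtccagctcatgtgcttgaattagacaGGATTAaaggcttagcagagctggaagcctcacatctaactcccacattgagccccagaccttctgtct
Rlbp1: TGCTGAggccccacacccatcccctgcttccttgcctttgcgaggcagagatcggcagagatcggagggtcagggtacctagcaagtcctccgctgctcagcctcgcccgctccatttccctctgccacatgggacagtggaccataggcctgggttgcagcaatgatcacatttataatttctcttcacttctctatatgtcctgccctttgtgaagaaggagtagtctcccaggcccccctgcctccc
Rgr: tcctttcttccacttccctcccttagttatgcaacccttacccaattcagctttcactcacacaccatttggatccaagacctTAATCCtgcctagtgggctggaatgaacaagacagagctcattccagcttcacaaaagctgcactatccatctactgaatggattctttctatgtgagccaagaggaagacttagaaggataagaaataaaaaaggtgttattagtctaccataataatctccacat

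Rdh12 holds TGCTGA at 196 to 191 bases before its start, and Rlbp1 holds it at 250 to 245. Rbp3 holds both motifs on the other strand, the NRL core at 155 to 150 and the CRX and OTX2 letters at 69 to 64 bases before the start. The CRX and OTX2 letters lie at 58 to 53 bases before the Abca4 start on the other strand and at 167 to 162 before the Rgr start on the gene's strand. Among the other 4 genes only Rpe65 had a match, TAATCC on the other strand at 42 to 37 bases. Both annotated starts of Rdh11 and those of Rdh5 and Lrat had none of these letters in the window. TAATCC thus occurred in 4 of the 10 promoters of the 9 genes, against 6.25% of all 32851 promoters searched on both strands. TGCTGA occurred in 3 of the 10, against 16.1%. Both together occurred in Rbp3 alone among the 9 and in 0.962% of all promoters. The 2 motifs do not overlap in Rbp3. A match describes letters and not a bound site.

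**Figure D1:**
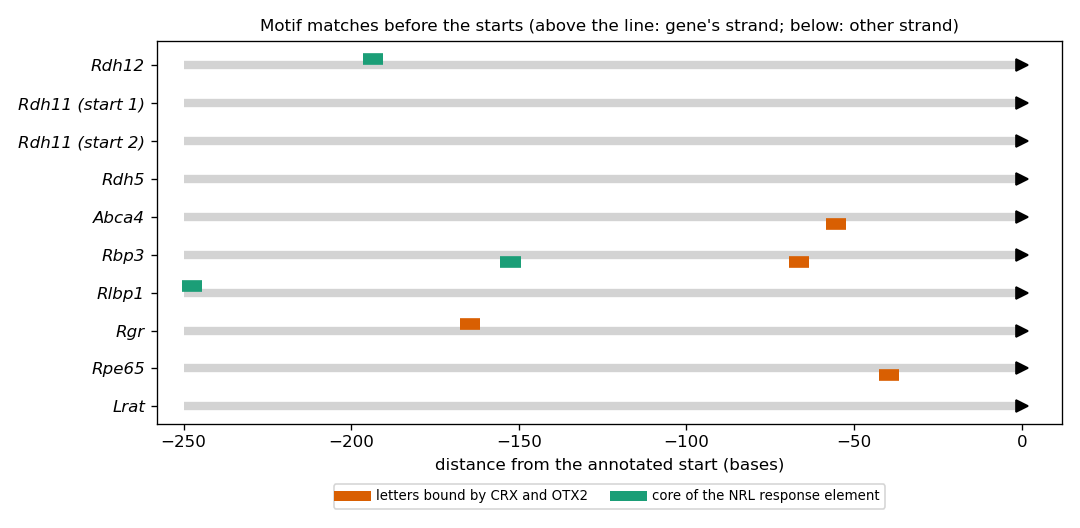
Motif matches in the 250 bases before each annotated start; the x axis is the distance from the start in bases, each row is a promoter and Rdh11 has 2. Orange marks TAATCC (4 genes) and green TGCTGA (3 genes), above the line for the gene's strand and below it for the other strand.

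The deposited values are log2 signals after RMA, and the array medians lay between 6.08 and 6.17. A difference was called when limma's adjusted p was below 0.05 over all 18193 genes and the absolute log2 difference was at least 1, a 2-fold change. As a check of the labels, in the rhoGFP-positive fraction 13 of 13 measured rod markers were called higher than in the rhoGFP-negative fraction and than in the nestinGFP-positive group. Of 13 progenitor markers 11 were called lower in both comparisons, and between rhoGFP-negative P4 and nestinGFP-positive P0 none was called. Of all genes, 3.61% were called higher and 7.32% lower between the rhoGFP fractions. Against nestinGFP-positive P0, 5.06% were higher and 10.5% lower in rhoGFP-positive P4, and 0.989% were called in rhoGFP-negative P4. The replicate 1 array of every group stood apart by its 18S ribosomal control signal, 12.13 to 13.62 on the 3 replicate 1 arrays and 9.65 to 10.44 on the others, on the log2 scale. Actin control probe sets at the 3′ end exceeded those at the 5′ end, a measure of RNA integrity, by 0.85 to 0.97 in rhoGFP-positive P4, 0.64 to 0.68 in rhoGFP-negative P4 and 0.40 to 0.99 in nestinGFP-positive P0, on the log2 scale. Its part in the results was not tested.

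Between the sorted fractions of the same line and age, Rdh12, Rbp3 and Rgr were higher in rhoGFP-positive P4 than in rhoGFP-negative P4 cells, Rlbp1 was lower, and Rdh11, Rdh5, Abca4, Rpe65 and Lrat were not called. That makes 4 of 9 called, against 10.9% of all genes (3.61% higher and 7.32% lower). The arrays of the fractions did not overlap for the same 4 genes, against 38.2% of all genes. The median log2 difference over the 9 genes was 0.05, against 0.01 over all genes. Compared with nestinGFP-positive P0, the rhoGFP-positive fraction had 4 of 9 genes higher (Rdh12, Abca4, Rbp3 and Rgr) and none lower, against 15.6% of all genes called (5.06% higher and 10.5% lower). The arrays of these groups did not overlap for the same 4 genes and Rpe65, against 47.8% of all genes. Between rhoGFP-negative P4 and nestinGFP-positive P0 only Abca4 was called, higher, against 0.989% of all genes (0.385% higher and 0.605% lower). Here the arrays did not overlap for Abca4, Rbp3 and Rgr, against 20.6% of all genes. The medians over the 9 genes in these 2 comparisons were 0.20 and 0.42, against 0.06 and 0.03 over all genes. The comparisons share groups, so their calls are not independent of each other. In bulk RNA, fewer cells of a type and less RNA per cell cannot be told apart.

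**Figure D2:**
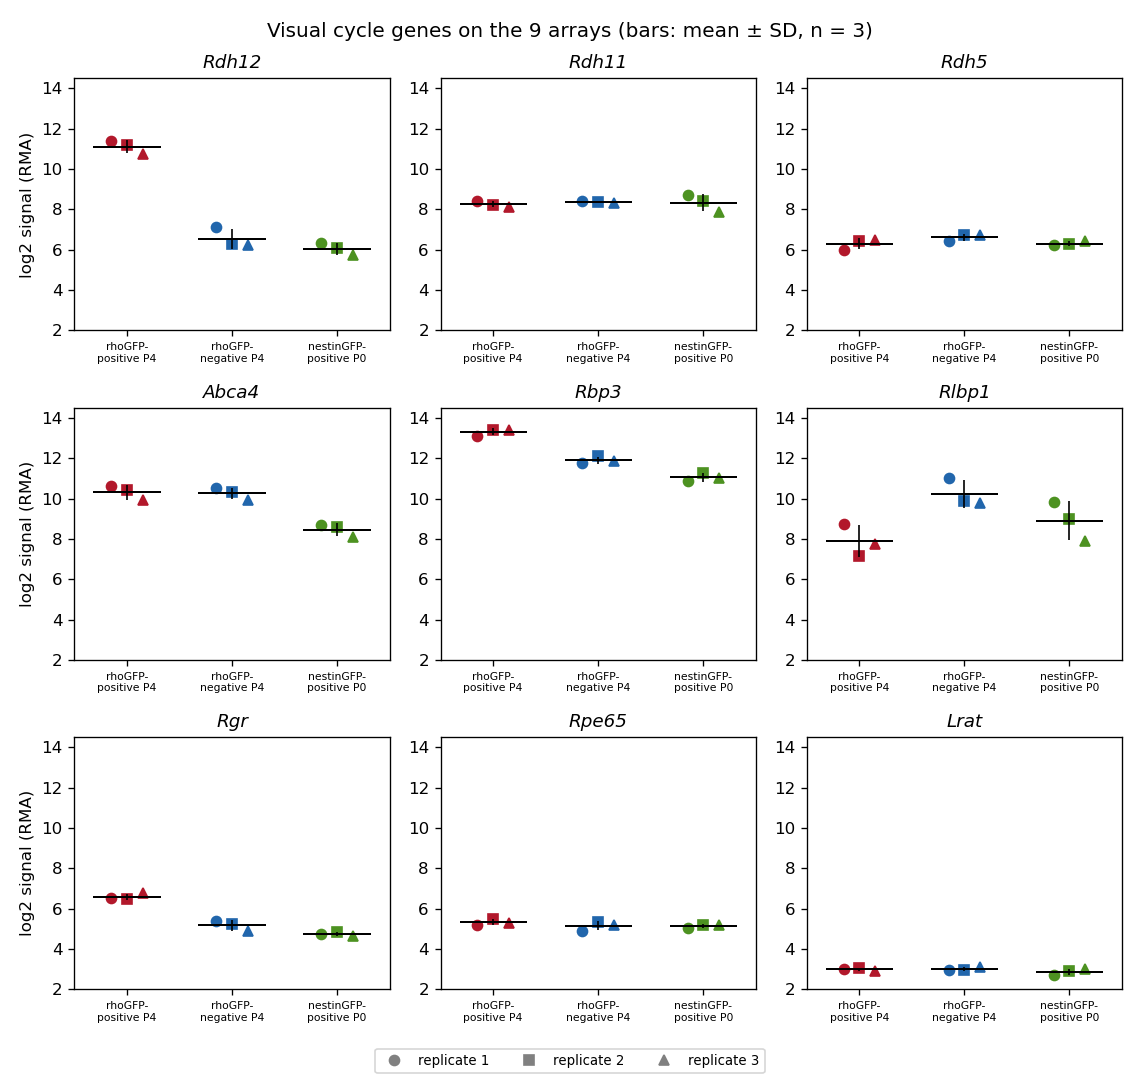
log2 RMA signal (y axis) of the 9 visual cycle genes on each array by group (x axis); the marker shape gives the replicate number, the long bar the group mean and the short bar ± 1 SD (n = 3). Rdh12 stands at 10.77 or above on the rhoGFP-positive arrays and at 7.13 or below on all others, while Abca4 is separated by group only in nestinGFP-positive P0; levels of different genes are not comparable, since probe sets differ in response.

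Rdh12, the photoreceptor retinol dehydrogenase that is mutated in a form of Leber congenital amaurosis in humans, had log2 signals of 11.38, 11.19 and 10.77 in rhoGFP-positive P4 cells, against 7.13, 6.29 and 6.23 in rhoGFP-negative P4 and 6.34, 6.08 and 5.74 in nestinGFP-positive P0 cells. All 3 rhoGFP-positive arrays were high and far from the other 6, which overlapped between their groups. The log2 difference between the rhoGFP fractions was 4.57 ± 0.26 (SE, n = 3 each), a 23.7-fold higher signal (limma adjusted p = 4.64e-06) and the fifth largest absolute difference of all genes. Against nestinGFP-positive P0 it was 5.06 ± 0.26, or 33.4-fold (adjusted p = 1.46e-06), the second largest. The difference of rhoGFP-negative P4 from nestinGFP-positive P0 was 0.50, with a 95% interval of -0.09 to 1.08 and an adjusted p of 0.368. The other Rdh12 probe set gave 3.99 and 4.31 in the comparisons of the rhoGFP-positive fraction, both called, and 0.32 between the other groups, not called.

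Rdh11, a broadly expressed retinal reductase, is the adjacent protein-coding gene of Rdh12 on chromosome 12 (RefSeq, GRCm38.p6), annotated on the opposite strand. Its log2 signals were 8.41, 8.24 and 8.13 in rhoGFP-positive P4, 8.41, 8.35 and 8.32 in rhoGFP-negative P4 and 8.70, 8.41 and 7.87 in nestinGFP-positive P0 cells. The groups overlapped fully. The log2 differences were -0.10 between the rhoGFP fractions (95% interval -0.52 to 0.32), -0.07 between rhoGFP-positive P4 and nestinGFP-positive P0 (-0.49 to 0.35) and 0.03 between rhoGFP-negative P4 and nestinGFP-positive P0 (-0.39 to 0.45). These intervals leave out a 2-fold change in either direction. The other Rdh11 probe set was also not called in any comparison, with differences of 0.19, 0.11 and -0.08 in the same order.

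Abca4, the retinal transporter of photoreceptor discs that is mutated in Stargardt disease in humans, had log2 signals of 10.60, 10.40 and 9.91 in rhoGFP-positive P4 cells, 10.50, 10.32 and 9.95 in rhoGFP-negative P4 cells and 8.70, 8.61 and 8.07 in nestinGFP-positive P0 cells. The rhoGFP fractions overlapped almost array by array, and every nestinGFP-positive array lay below both. The fractions differed by 0.05 ± 0.23 on the log2 scale (95% interval -0.46 to 0.56, adjusted p = 0.914), an interval that leaves out a 2-fold change. Within replicate numbers 1, 2 and 3 the difference between the fractions was 0.10, 0.08 and -0.03.

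Against nestinGFP-positive P0, Abca4 was 3.59-fold higher in rhoGFP-positive P4 cells (log2 difference 1.85 ± 0.23, limma adjusted p = 0.000163) and 3.47-fold higher in rhoGFP-negative P4 cells (1.79 ± 0.23, adjusted p = 0.0107). The second of these differences ranked 35 among the absolute differences of 18193 genes in that comparison. Within replicate numbers 1, 2 and 3 it was 1.80, 1.71 and 1.87. The call between rhoGFP-negative P4 and nestinGFP-positive P0 was lost without nestinGFP-positive replicate 2 (1.87, adjusted p = 0.0540). The number of genes called in that comparison moved with single arrays, from 180 on all arrays to 31, 64 and 559 without rhoGFP-negative replicate 1, 2 and 3 and to 327, 19 and 60 without nestinGFP-positive replicate 1, 2 and 3, and it was 453 with the replicate number as a block. In the same comparison 1 of 13 rod markers (Nrl) and none of 11 cone markers were called, against 0.989% of all genes. Their list medians were 0.69 and 0.285, against 0.03 over all genes. Of the 11 cone markers, 2 were called higher in rhoGFP-positive than in rhoGFP-negative P4 (median 0.40), against 3.61% of all genes. Against nestinGFP-positive P0, 6 of the 11 were called higher in rhoGFP-positive P4 (median 1.09), against 5.06% of all genes. The summed cone marker signal was 12.78 to 13.63 in rhoGFP-positive P4, 12.35 to 12.80 in rhoGFP-negative P4 and 11.65 to 11.98 in nestinGFP-positive P0 (log2 of the sum). The part of cone cells in the Abca4 levels was not tested.

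Rbp3, the extracellular retinoid carrier of the interphotoreceptor matrix, had log2 signals of 13.12, 13.39 and 13.42 in rhoGFP-positive P4 cells, 11.74, 12.10 and 11.86 in rhoGFP-negative P4 cells and 10.86, 11.29 and 11.02 in nestinGFP-positive P0 cells. On this probe set it stood in 3 separate steps, with no overlap between any groups. It was 2.65-fold higher in rhoGFP-positive than in rhoGFP-negative P4 cells (log2 difference 1.41 ± 0.15, limma adjusted p = 0.000101) and 4.78-fold higher than in nestinGFP-positive P0 cells (2.26 ± 0.15, adjusted p = 4.19e-06). The step between rhoGFP-negative P4 and nestinGFP-positive P0 was 0.85 ± 0.15 (adjusted p = 0.0258), below the 2-fold minimum and so not called. The group means lay at the percentile 97.07 of all probe sets or higher in every group. The other Rbp3 probe set gave log2 differences of 2.73, 3.14 and 0.41, the first 2 of them called. On it the rhoGFP-negative and nestinGFP-positive arrays overlapped.

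**Figure D3:**
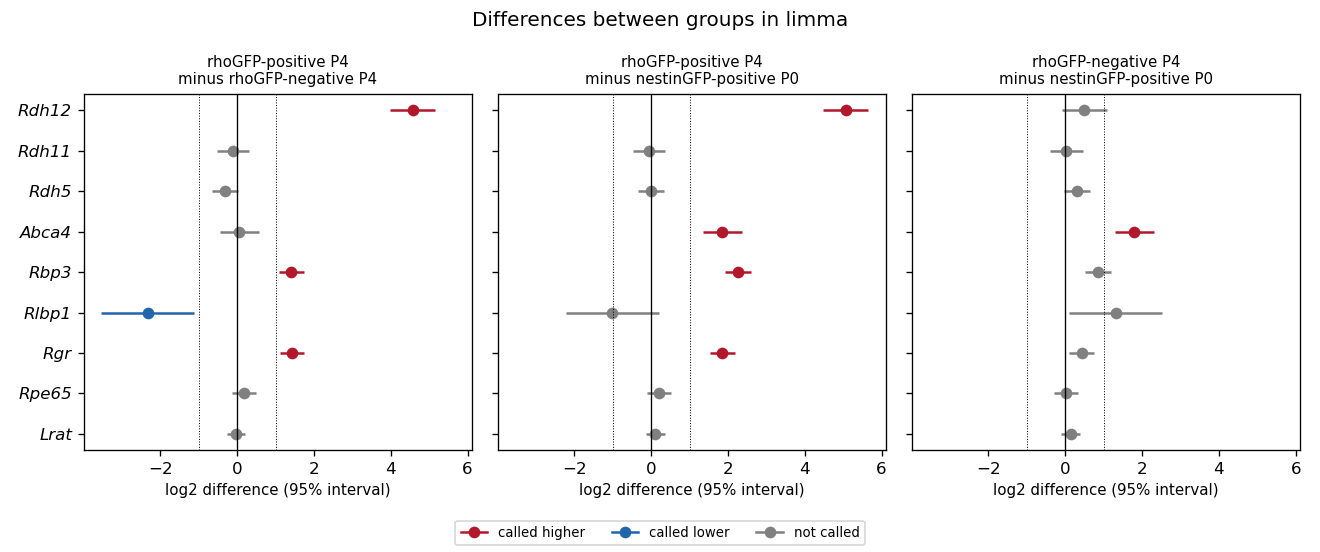
log2 difference (x axis) of each visual cycle gene (rows) in 3 comparisons, points with 95% intervals from limma and dotted lines at -1 and 1. Red marks genes called higher and blue genes called lower: Rdh12 has the largest differences of the 9 genes (4.57 and 5.06), Abca4 is near 0 only between the rhoGFP fractions (0.05), and the interval of Rlbp1 is the widest.

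Rlbp1, the 11-cis-retinoid binding protein of pigment epithelium and Müller glia, had log2 signals of 8.75, 7.17 and 7.76 in rhoGFP-positive P4 cells, 11.03, 9.87 and 9.76 in rhoGFP-negative P4 cells and 9.82, 8.998 and 7.90 in nestinGFP-positive P0 cells. The rhoGFP-positive arrays were all below the rhoGFP-negative ones, and the nestinGFP-positive arrays overlapped with both. Rlbp1 was 5.004-fold lower in rhoGFP-positive than in rhoGFP-negative P4 cells (log2 difference -2.32 ± 0.54, limma adjusted p = 0.0109). Within replicate numbers 1, 2 and 3 the difference was -2.28, -2.70 and -1.999. Its SE was 0.54, against a median of 0.141 over all genes, with SDs of 0.80, 0.70 and 0.96 in rhoGFP-positive P4, rhoGFP-negative P4 and nestinGFP-positive P0.

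The difference of Rlbp1 between rhoGFP-positive P4 and nestinGFP-positive P0 was -1.01 (95% interval -2.22 to 0.20, adjusted p = 0.178). Between rhoGFP-negative P4 and nestinGFP-positive P0 it was 1.31 (0.10 to 2.53, adjusted p = 0.238), and with the replicate number as a block that difference was called (adjusted p = 0.00991). Of 14 markers of Müller glia other than the 9 genes, 7 were lower and 1 higher in rhoGFP-positive than in rhoGFP-negative P4 cells. Over all genes 7.32% were called lower and 3.61% higher there. The list median was -1.19, against 0.01 over all genes. The summed signal of the 14 markers was 12.40 to 12.78 in rhoGFP-positive P4, 13.68 to 13.85 in rhoGFP-negative P4 and 13.74 to 13.93 in nestinGFP-positive P0 (log2 of the sum). Sox9 of this list is also in the progenitor list, and Vim and Slc1a3 are known in progenitors too. The part of glia or progenitors in the Rlbp1 difference was not tested.

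Rgr, the retinal-binding opsin, had log2 signals of 6.55, 6.47 and 6.76 in rhoGFP-positive P4 cells, 5.37, 5.24 and 4.88 in rhoGFP-negative P4 cells and 4.72, 4.84 and 4.66 in nestinGFP-positive P0 cells. The 3 rhoGFP-positive arrays were high, and no groups overlapped. Rgr was 2.69-fold higher in rhoGFP-positive than in rhoGFP-negative P4 cells (log2 difference 1.43 ± 0.14, limma adjusted p = 7.16e-05) and 3.61-fold higher than in nestinGFP-positive P0 cells (1.85 ± 0.14, adjusted p = 9.88e-06). Between rhoGFP-negative P4 and nestinGFP-positive P0 the difference was 0.42 (0.10 to 0.74, adjusted p = 0.156). The means lay at the percentiles 57.12, 33.81 and 27.61 of all probe sets in rhoGFP-positive P4, rhoGFP-negative P4 and nestinGFP-positive P0, so the lower groups were in the dim range where RMA compresses differences. The table has no detection calls, and the folds are lower bounds if those groups were at background. Between the rhoGFP fractions Rgr thus differed in the direction opposite to Rlbp1.

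The 3 other genes best known from the pigment epithelium were not called in any comparison. Rdh5, the 11-cis-retinol dehydrogenase, had log2 signals of 6.00, 6.42 and 6.48 in rhoGFP-positive P4, 6.42, 6.71 and 6.75 in rhoGFP-negative P4 and 6.25, 6.26 and 6.43 in nestinGFP-positive P0 cells. The groups overlapped, and the log2 differences were -0.33 between the rhoGFP fractions (95% interval -0.66 to 0.01, adjusted p = 0.161), -0.01 between rhoGFP-positive P4 and nestinGFP-positive P0, and 0.31 between rhoGFP-negative P4 and nestinGFP-positive P0 (adjusted p = 0.312).

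Rpe65, the isomerase, had log2 signals of 5.20, 5.49 and 5.30 in rhoGFP-positive P4, 4.90, 5.36 and 5.20 in rhoGFP-negative P4 and 5.03, 5.18 and 5.18 in nestinGFP-positive P0 cells. Its rhoGFP-positive arrays lay narrowly above the nestinGFP-positive ones, with a difference of 0.20 (adjusted p = 0.275), and the other groups overlapped. Lrat, which makes the retinyl esters that RPE65 uses, stayed between 2.71 and 3.11 on all 9 arrays, with log2 differences of -0.03, 0.11 and 0.14. The mean of Rpe65 lay at the percentiles 33.59 to 36.91 and that of Lrat at 4.47 to 5.23 of all probe sets, and without detection calls the table does not say whether either was above background. The 95% interval of the Rpe65 difference was -0.13 to 0.48 between the rhoGFP fractions, -0.10 to 0.51 between rhoGFP-positive P4 and nestinGFP-positive P0 and -0.28 to 0.33 between rhoGFP-negative P4 and nestinGFP-positive P0.

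Of 15 pigment epithelium markers other than the 9 genes, 1 was higher and 1 lower in rhoGFP-positive than in rhoGFP-negative P4 cells. These were Tyrp1 (1.94) and Ermn (-1.14). Over all genes 3.61% were called higher and 7.32% lower there. The list median was 0.11, against 0.01 over all genes. Against nestinGFP-positive P0, 2 of the 15 markers were higher (Tyrp1 and Slc16a8) and 2 lower (Mitf and Ermn) in rhoGFP-positive P4. Over all genes 15.6% were called there. In rhoGFP-negative P4 against nestinGFP-positive P0 none of the 15 was higher and 2 were lower, again Mitf (-1.23) and Ermn (-1.30). Over all genes 0.385% were called higher and 0.605% lower in that comparison. The number of the 15 called in it ran from 0 to 3 under the alternatives. Between the fractions Slc16a8 differed by 0.71 and Mitf by -0.85, neither called. The summed signal of the 15 markers was 10.21 to 10.26 in rhoGFP-positive P4, 9.96 to 10.10 in rhoGFP-negative P4 and 9.88 to 10.07 in nestinGFP-positive P0 (log2 of the sum). In this sum the 3 rhoGFP-positive arrays lay above the others through Tyrp1. The list median of each array was also higher in rhoGFP-positive P4. It was 6.07 to 6.12 there, 5.55 to 5.87 in rhoGFP-negative P4 and 5.81 to 5.93 in nestinGFP-positive P0. Without Tyrp1, a sum taken after seeing the data, the 14 others gave 9.98 to 10.03 in rhoGFP-positive P4, 9.90 to 10.04 in rhoGFP-negative P4 and 9.83 to 10.04 in nestinGFP-positive P0, and the groups overlapped. Tyr, which encodes the enzyme that starts melanin synthesis, averaged 3.38 in rhoGFP-positive P4, 3.31 in rhoGFP-negative P4 and 3.06 in nestinGFP-positive P0 cells. These are dim values, and without detection calls they do not say whether Tyr was above background. The part of pigment epithelium in the Rgr difference was not tested. Tyr, and the other markers named beside list counts, were picked with their values known.

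The spread within groups followed the replicate number for several genes. Rdh12, Rdh11, Abca4 and Rlbp1 were highest on the replicate 1 array in all 3 groups, which is 4 of 9 genes, against 12.2% of all genes. Rdh5, Rbp3 and Rpe65 were lowest on it in all 3 groups, 3 of 9, against 21.8% of all genes. The replicate 1 value of Rlbp1 exceeded the group mean by 0.86 in rhoGFP-positive P4, 0.81 in rhoGFP-negative P4 and 0.91 in nestinGFP-positive P0 on the log2 scale. With the arrays numbered 2 and 3 only, an alternative chosen after seeing the data, the log2 differences of rhoGFP-positive minus rhoGFP-negative P4 were 4.72 for Rdh12, 1.43 for Rbp3, 1.56 for Rgr and -2.35 for Rlbp1, all still called. Those of rhoGFP-positive P4 minus nestinGFP-positive P0 were 5.07 for Rdh12, 1.82 for Abca4, 2.26 for Rbp3 and 1.87 for Rgr, also called. Abca4 kept its call between rhoGFP-negative P4 and nestinGFP-positive P0 at 1.79. The labels do not say what a replicate number marks.

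**Figure D4:**
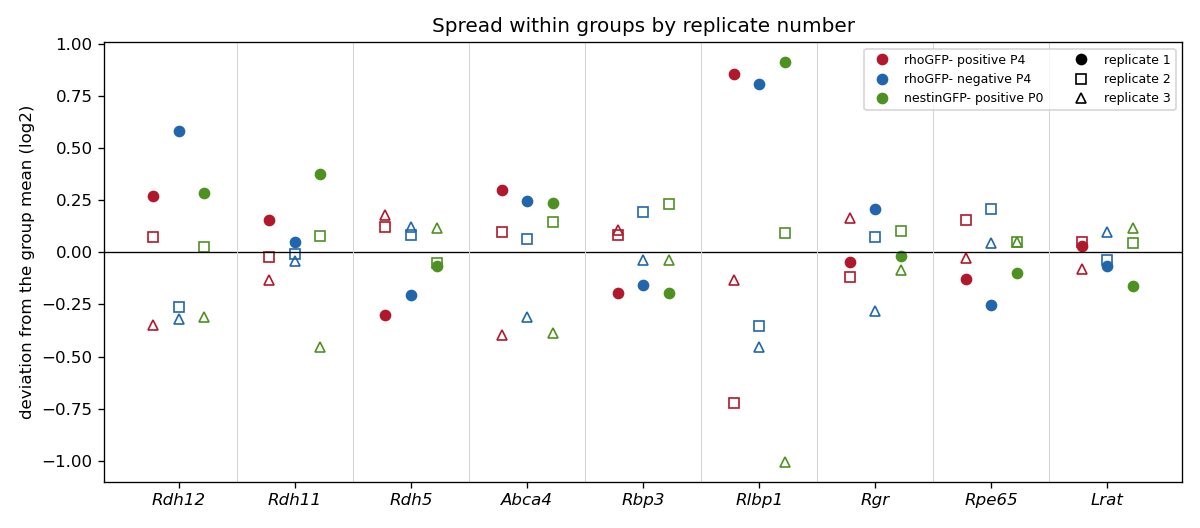
Deviation of each array from its group mean (y axis, log2) for the 9 visual cycle genes (x axis); colours give the groups and filled circles the replicate 1 arrays. The replicate 1 arrays are the highest of their group for Rdh12, Rdh11, Abca4 and Rlbp1 and the lowest for Rdh5, Rbp3 and Rpe65.

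A wider list of 40 retinoid gene symbols gave 34 measured genes. Of these, 4 were called higher and 2 lower in rhoGFP-positive than in rhoGFP-negative P4 cells. Over all genes 10.9% were called there (3.61% higher and 7.32% lower). The median difference of the list was 0.125, against 0.01 over all genes. In rhoGFP-positive P4 against nestinGFP-positive P0 cells 4 were higher and 5 lower, against 15.6% of all genes called (median 0.19, against 0.06), and in rhoGFP-negative P4 against nestinGFP-positive P0 cells none was higher and 1 was lower, against 0.989% (median 0.02, against 0.03). The other measured genes of the list were tested and not called in any comparison on the probe set used. Of these, Scarb1 lay just below the fold minimum between the rhoGFP fractions (0.99), and its other probe sets were called higher there (1.13 and 1.09). A further probe set of Tmem30a was called higher in rhoGFP-positive P4 against nestinGFP-positive P0 (1.02). The rest are not described singly here.

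Of 15 other dehydrogenases and reductases, 2 were higher in rhoGFP-positive than in rhoGFP-negative P4 cells. Rdh9, of the retinol dehydrogenase family, had log2 signals of 6.54, 6.41 and 6.17 in rhoGFP-positive P4, 4.24, 4.27 and 4.04 in rhoGFP-negative P4 and 3.73, 3.92 and 4.54 in nestinGFP-positive P0 cells. Its rhoGFP-positive arrays were the highest by more than 1 log2 unit, with a difference of 2.19 ± 0.20 between the fractions (limma adjusted p = 4.03e-05) and of 2.31 against nestinGFP-positive P0. Rdh9 has a single probe set here, of the _s_at kind that can match related genes, and its lower groups were dim, so it has no value without such probe sets or without dim genes. Dhrs3, which reduces retinal to retinol, had 8.09, 8.41 and 7.78 in rhoGFP-positive P4, 6.59, 6.82 and 6.74 in rhoGFP-negative P4 and 6.57, 6.69 and 6.93 in nestinGFP-positive P0 cells. It was likewise separate in the rhoGFP-positive fraction, by 1.38 ± 0.17 (adjusted p = 0.00024) and 1.36. Rdh14 was called only against nestinGFP-positive P0 (1.14), a call that was lost when its probe sets were averaged (0.86) and without rhoGFP-positive replicate 1 (0.93).

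Of 9 carriers and uptake proteins, the retinoic acid binding proteins showed the largest called differences. Crabp1 had log2 signals of 8.12, 8.50 and 8.81 in rhoGFP-positive P4, 10.08, 11.28 and 10.57 in rhoGFP-negative P4 and 11.69, 11.97 and 11.26 in nestinGFP-positive P0 cells. It was low on all rhoGFP-positive arrays, by -2.16 ± 0.30 between the fractions (limma adjusted p = 0.000592) and by -3.16 against nestinGFP-positive P0. Crabp2 was called lower against nestinGFP-positive P0 only (-2.55), with 5.69, 5.65 and 6.09 in rhoGFP-positive P4, 6.13, 6.62 and 7.41 in rhoGFP-negative P4 and 7.79, 8.23 and 9.07 in nestinGFP-positive P0 cells. Lrp2, the endocytic receptor megalin, was higher in rhoGFP-positive than in rhoGFP-negative P4 cells by 1.02 ± 0.18. That call lay at the 2-fold minimum and was lost without rhoGFP-positive replicate 1 (0.82), without rhoGFP-negative replicate 3 (0.94) and on the brightest probe set left when those of the _s_at kind were dropped (0.52). It was also lost with cyclic loess (0.96), averaged probe sets (0.90) and the arrays numbered 2 and 3 only (0.88). A dimmer Lrp2 probe set that is not of the _s_at kind was called higher between the fractions (1.16). Rbp4, the plasma retinol carrier, was lower against nestinGFP-positive P0 (-1.03, adjusted p = 0.0399). Its difference was -0.55 and not called without nestinGFP-positive replicate 3, the single array at 6.75 where the others of that group had 5.19 and 5.41. Its call was also lost without any single rhoGFP-positive replicate, at -0.87, -1.10 and -1.11 without replicates 1, 2 and 3, with a common median (-0.98), with the 6 arrays compared alone and with the arrays numbered 2 and 3 only (-1.17).

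Among the rest, Rrh (peropsin), a retinal-binding opsin described in the pigment epithelium, had log2 signals of 6.54, 6.61 and 7.23 in rhoGFP-positive P4, 9.08, 8.95 and 9.63 in rhoGFP-negative P4 and 9.94, 9.92 and 10.16 in nestinGFP-positive P0 cells. It was low in the rhoGFP-positive fraction, by -2.43 ± 0.22 (limma adjusted p = 3.86e-05) and -3.21, where Rgr was high. Atp8a2, a phospholipid flippase of photoreceptors, had 8.71, 9.02 and 8.79 in rhoGFP-positive P4, 6.34, 6.62 and 6.51 in rhoGFP-negative P4 and 6.29, 6.62 and 6.502 in nestinGFP-positive P0 cells. It was higher in the rhoGFP-positive fraction by 2.35 ± 0.13 (adjusted p = 4.25e-06) and 2.37. Of its other probe sets 1 gave 2.14 between the fractions, called, and 1 gave 0.59, not called. Lpl, lipoprotein lipase, was lower than in nestinGFP-positive P0 in the rhoGFP-positive fraction (-2.67) and in the rhoGFP-negative fraction (-1.96, adjusted p = 0.0273). The call in the rhoGFP-negative fraction was lost without rhoGFP-negative replicate 1 or 2 (-1.52 and -2.21) and without nestinGFP-positive replicate 2 or 3 (-1.70 and -2.09), and in the fit of the 6 arrays compared alone.

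**Figure D5:**
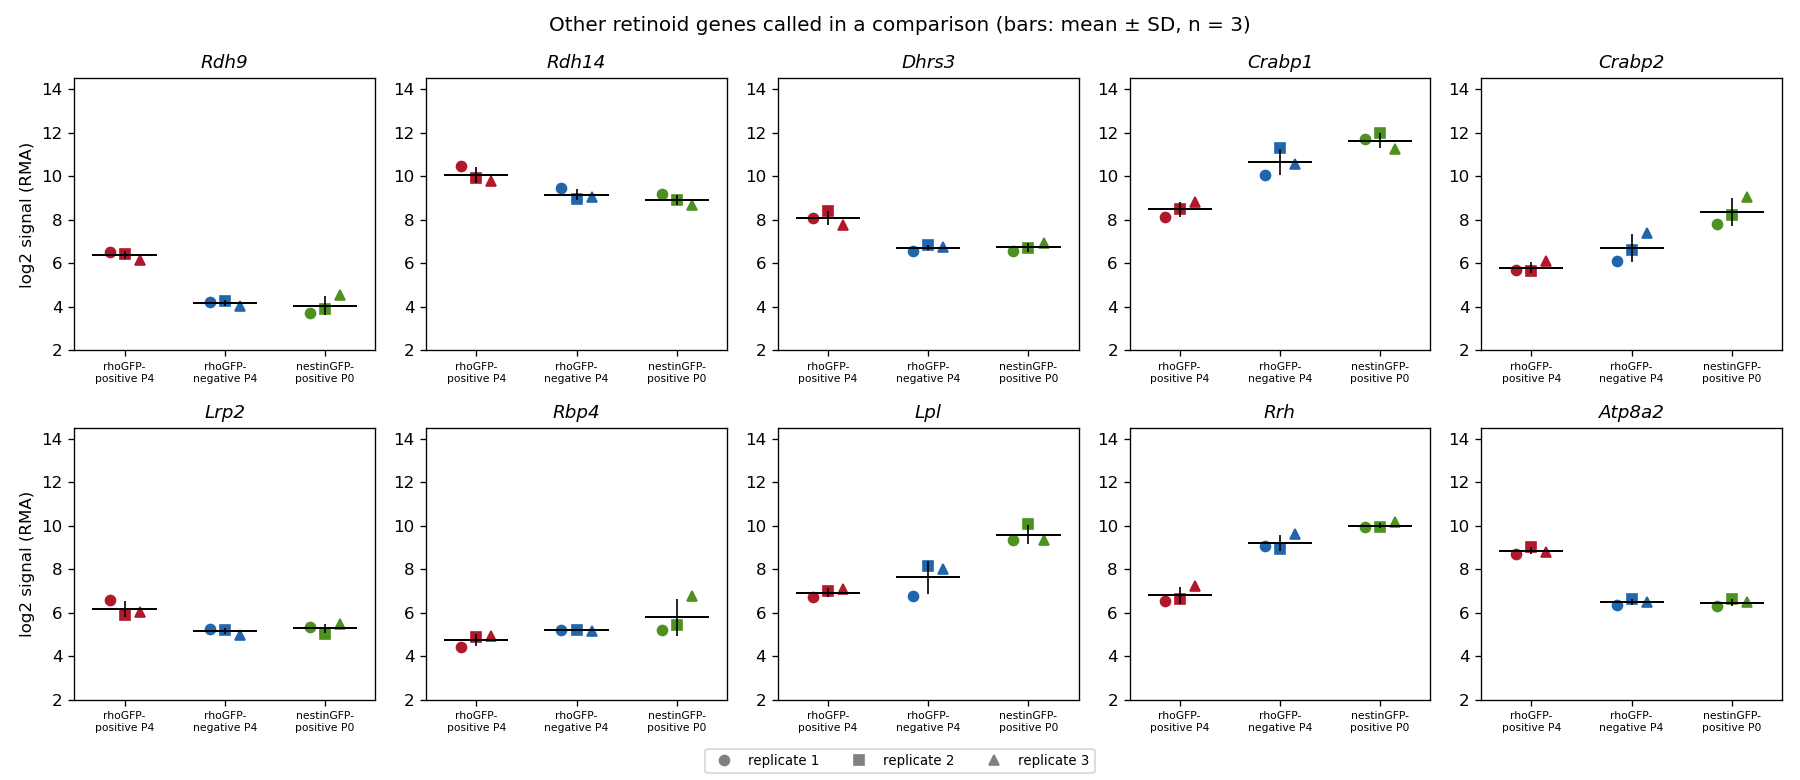
log2 RMA signal (y axis) by group (x axis) of the 10 genes of the wider retinoid list that were called in any comparison; marker shapes give replicate numbers, the long bar the group mean and the short bar ± 1 SD (n = 3). Rdh9, Dhrs3 and Atp8a2 are highest and Crabp1 and Rrh lowest on all 3 rhoGFP-positive arrays; the nestinGFP-positive mean of Rbp4 rests on 1 array at 6.75.

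The genes whose profile over the 9 arrays was most like that of a visual cycle gene were found by the root-mean-square difference of log2 values, each centred on its own mean. For Rdh12, whose own spread was 2.30, they were Gje1 (0.24), Reep6 (0.31) and Cnga1 (0.35). For Rbp3 (own spread 0.94) they were Bbs9 (0.13), Dock8 (0.14) and Rpl3l (0.15). For Rgr (0.81) they were Stom (0.10), Prkab1 (0.14) and Sema7a (0.15). For Rlbp1 (1.17) they were Nfix (0.38), Slitrk6 (0.40) and Sema5a (0.42), a poorer likeness relative to its spread. For Abca4 (0.90), added after its values were seen, they were Agpat3 (0.25), Samsn1 (0.285) and Rasl11a (0.30). Agpat3 had a log2 difference of 0.42 between the rhoGFP fractions and of 1.71 and 1.29 for the rhoGFP-positive and rhoGFP-negative fractions against nestinGFP-positive P0. The likeness includes the replicate spread as well as the groups, and was ranked with no test.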

How the data were processed

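Total RNA of 9 pooled sorted samples was hybridised to Affymetrix arrays after labelling from 200 ng, per the labels' protocols. The authors deposited log2 values from RMA, per the submitters' processing notes, which name no version. RMA subtracts background, makes probe distributions equal between arrays and summarises probe sets, and it understates differences of dim genes. Of 45037 probe sets other than 64 controls, 34945 were annotated to 1 gene symbol, 932 to several and 9160 were unnamed here, and 34741 symbols were looked up by Entrez ID. The probe set with the highest mean represented each of 18193 genes, 9010 of which had several.

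Groups were compared with limma 3.58.1 (R 4.3.3). Linear models with 3 group means over 9 arrays (lmFit) and moderated variances (eBayes) gave two-sided tests with Benjamini-Hochberg adjustment over all genes. Other probe sets were tested in a fit of all 34945. Calls needed a change of 2-fold or more as well as an adjusted p below 0.05. The steps were tested on simulated data. Figures used matplotlib 3.10.9 (Python 3.11.15). Nothing beyond the term biological replicate says that pools were separate animals, so p-values measure the spread between these samples, and the number of arrays limits precision.

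The members and lists were chosen with earlier results of these data known. The genes named were all members, each wider-list gene called in any comparison, and the 3 genes most like Rdh12, Rbp3, Rlbp1 and Rgr, passing over clone and model names. The wider list, and the marker lists of rods, cones, pigment epithelium, Müller glia, progenitors and microglia, came from textbook knowledge. Of 8 microglial markers 0, 1 and 0 were called in the 3 comparisons, against 10.9%, 15.6% and 0.989% of all genes. List counts have no test of their own.

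Arrays with the same replicate number in both rhoGFP fractions had deviations from their group means that correlated over genes (0.624, 0.454 and 0.451). Arrays of these fractions with different numbers correlated at -0.488 to 0.0735. Same-numbered arrays of rhoGFP-negative P4 and nestinGFP-positive P0 correlated at 0.543, 0.155 and 0.235. There rhoGFP-negative replicate 2 and nestinGFP-positive replicate 3 reached 0.221, so the numbers set pairs apart less clearly. Between rhoGFP-positive P4 and nestinGFP-positive P0 same-numbered arrays correlated at 0.522, -0.00806 and 0.252 and were not taken as pairs. The main fit used no pairing, so its SEs and p-values ignore it. Pairing by number, read from the data and not the labels, entered only the replicate block and the differences given within replicate numbers. Alternatives were 3 further normalizations (cyclic loess, quantile, common median), probe sets averaged per gene, no _x_at or _s_at probe sets, dropping genes whose mean signal was below the 40th percentile, fitting the 6 arrays of a comparison alone, the replicate block, trended robust eBayes, other thresholds, each array left out and the arrays numbered 2 and 3 alone.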

Additional observations from a re-analysis of the deposited data

How the results depend on the processing

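Of 477 values of the 27 differences of the 9 genes under the alternatives, 451 kept their direction and side of the threshold, 3 lost a call, 3 gained one and 20 changed sign. Every change of sign was of an uncalled difference near 0, and the cause was not tested. For rhoGFP-positive P4 minus nestinGFP-positive P0, Rdh5 became 0.036 with a common median, 0.049 with quantile normalization and 0.11 with arrays 2 and 3 (-0.10 to 0.14 with each array left out). Rdh11 there became 0.011 with quantile normalization, 0.021 with averaged probe sets and 0.044 with arrays 2 and 3 (-0.30 to 0.12 with each array left out). For rhoGFP-negative P4 minus nestinGFP-positive P0, Rpe65 became -0.025 (quantile) and -0.039 (cyclic loess) and ran from -0.078 to 0.15 with each array left out, and Rdh11 became -0.026 (averaged probe sets) and ran from -0.20 to 0.22. Between the rhoGFP fractions Rdh11 became 0.048 (averaged probe sets), and with each array left out Abca4 ran from -0.10 to 0.25 and Lrat from -0.060 to 0.020.

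Of the calls, Rlbp1 between the rhoGFP fractions was lost only at an adjusted p below 0.01 (its differences ran from -2.75 to -1.92 with adjusted p of 7.11e-05 to 0.0494), and Abca4 between rhoGFP-negative P4 and nestinGFP-positive P0 at that threshold and without nestinGFP-positive replicate 2. With no fold minimum the genes called were 4417, 6508 and 370 in the 3 comparisons. Between rhoGFP-negative P4 and nestinGFP-positive P0 all genes called were 28 with the 6 arrays compared, 453 with the replicate block, 23 at an adjusted p below 0.01 and 19 to 559 with each array left out. The members called there were 2 with the replicate block, 2 with no fold minimum, 0 below 0.01 and 0 to 1 with each array left out. The block, by pairing same-numbered arrays, also called Rlbp1 against nestinGFP-positive P0 (adjusted p = 0.00991 for rhoGFP-negative P4, 0.00818 for rhoGFP-positive P4, where the numbers did not pair) and changed no other call of a member. Without dim genes Rgr, Rpe65, Lrat, Rdh9, Lrp2 and Rbp4 were not tested. No depth is given by arrays, and the absence of detection calls limits statements on Rgr, Rpe65, Lrat, Rdh9 and Tyr.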
